A study of Mus musculus with 16 samples.

Results

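The genes described here are 10 genes of the Notch pathway in mIMCD3 cells given doxycycline: the receptors *Notch1*, *Notch2* and *Notch3*, the ligands *Jag1*, *Jag2* and *Dll1*, and the target genes *Hes1*, *Hey1*, *Heyl* and *Nrarp*. They were taken by name, by the gene symbol of the TPM table and the same Ensembl identifier in the count table, and all 10 were found among the 54393 genes of the count table. Of the 10, 9 had enough counts to be tested. *Heyl* had 0 to 2 counts in each library and was left out of the fit.

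The mIMCD3 line was derived from inner medullary collecting duct, in a mouse with an SV40 transgene, and it is an immortalised cell line, not tissue. The cells were grown for 10 days on permeable filters and then given doxycycline (DOX, the antibiotic that switches tetracycline-inducible transgenes) at 2 µg/mL or its vehicle DMSO, for 3 or 6 days. The 4 groups of 4 replicates are called DMSO 3 d, DOX 3 d, DMSO 6 d and DOX 6 d. All 16 libraries carry the wild type label, and polyadenylated RNA was sequenced in each. The labels do not say whether replicates were separate cultures, so p-values measure only the spread between these libraries, which may be technical. In such bulk samples, fewer cells of a kind and less RNA per cell cannot be told apart.

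Notch receptors are membrane proteins that are cut when a Jagged or Delta-like ligand on a neighbouring cell pulls on them. An ADAM protease cuts first and the gamma-secretase complex second, and the freed intracellular part enters the nucleus, where it joins the DNA-binding protein RBPJ and a Mastermind coactivator to switch on genes such as those of the Hes and Hey repressors. In the collecting duct, Notch signalling is known for favouring principal cells over intercalated cells.

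Total estimated counts ran from 16933343 to 23960860 per library, which sets the precision of each value. CPM is a gene's count scaled to the size of its library after TMM scaling. The detection floor was taken as 3 counts, worth 0.123 to 0.183 CPM over the libraries, and it covers counting error only. The epithelial marker *Epcam* had 218 ± 18.7 TPM (a unit that scales to library size and also divides by transcript length; SD, n = 8 DMSO libraries). The principal cell water channel *Aqp2* had 0.184 ± 0.141 TPM and the intercalated cell regulator *Foxi1* 0.0301 ± 0.0334 TPM, so the epithelial marker was abundant while these defining RNAs of both mature collecting duct cell types were near 0. The library DOX 3 d replicate 1 stood apart from the other three of its group. In the other three, log2 CPM dropped by 0.0845 to 0.105 for each doubling of a gene's longest transcript, relative to the mean of all libraries, whereas in replicate 1 it was higher by 0.0329 per doubling. This length slope was between -0.0304 and 0.0751 in the other 12 libraries. *Notch1*, *Notch2*, *Notch3*, *Jag1* and *Jag2* have longest transcripts of 9488, 10500, 8016, 5612 and 5106 bases, and *Hes1* has one of 1468 bases.

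*Notch2* and *Jag1* were the members that fell with DOX at 3 d, and the sequences just before their start sites are shown to see what the receptor and the ligand have in common there, beside that of the target gene *Nrarp*. They come from RefSeq on GRCm38.p6, whose promoter table matched 7 of the 10 members, and each stops before the first transcript start of the GENCODE annotation. Capitals mark the GC box, GGGCGG on one strand or CCGCCC on the other, which is the site of Sp1-type factors. *Notch2* is on the plus strand at chr3:98013288-98013526, *Jag1* on the minus strand at chr2:137116645-137116770 and *Nrarp* on the plus strand at chr2:25180508-25180757.
Notch2: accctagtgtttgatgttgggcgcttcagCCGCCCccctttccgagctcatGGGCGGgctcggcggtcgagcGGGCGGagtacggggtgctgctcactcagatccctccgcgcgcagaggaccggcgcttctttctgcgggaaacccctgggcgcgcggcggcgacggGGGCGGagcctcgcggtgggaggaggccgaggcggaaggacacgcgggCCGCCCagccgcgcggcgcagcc
Jag1: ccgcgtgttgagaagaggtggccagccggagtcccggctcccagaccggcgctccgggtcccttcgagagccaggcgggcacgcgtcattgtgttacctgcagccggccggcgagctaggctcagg
Nrarp: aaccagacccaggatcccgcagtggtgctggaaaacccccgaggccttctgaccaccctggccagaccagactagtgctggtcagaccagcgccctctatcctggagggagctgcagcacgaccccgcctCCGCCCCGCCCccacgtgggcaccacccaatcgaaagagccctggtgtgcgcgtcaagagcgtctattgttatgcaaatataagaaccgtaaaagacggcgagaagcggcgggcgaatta

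The *Notch2* stretch held 5 GC boxes, the *Nrarp* stretch 2 that share a base, and the *Jag1* stretch 0. Over the 250 bases before the RefSeq start, 5 of the 7 members matched had a GC box, beside 32.7% of the 32851 promoters in the table. *Notch1* and *Jag2* are among those 5, although their windows lie wholly after the first GENCODE transcript start. The core of the RBPJ site, TGGGAA on one strand or TTCCCA on the other, was in 0 of the 7 members' windows and in 21.6% of all windows of that length. The targets *Hes1*, *Hey1* and *Heyl* had no entry and were not searched, so *Nrarp* was the only target among the 7. Outside the members, the core was found 2 times for *Hes5*, 1 time for *Hes7* and 1 time for *Hey2*, and 0 times for *Hes6*. These are matches of letters in a short window and say nothing about binding.

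By TPM, which allows levels of different genes to be compared, the targets and ligands spanned the whole range. *Hes1* was highest at 34.4 ± 3.57 TPM (SD, n = 8 DMSO libraries), followed by *Jag2* at 30.7 ± 3.15 TPM, *Notch2* at 17.9 ± 2.59 TPM, *Notch1* at 13.6 ± 3.14 TPM, *Jag1* at 7.62 ± 0.664 TPM, *Notch3* at 5.63 ± 1.08 TPM, *Nrarp* at 5.23 ± 0.593 TPM, *Dll1* at 1.42 ± 0.419 TPM and *Hey1* at 0.570 ± 0.0803 TPM. *Heyl* stayed at or below 0.0300 TPM. Neighbours in this order overlapped for *Hes1* and *Jag2*, *Notch2* and *Notch1*, *Jag1* and *Notch3*, and *Notch3* and *Nrarp*, so those pairs were not separated by their spread. *Notch2* and *Notch1* had the order given in 7 of the 8 DMSO libraries but in 8 of all 16. On CPM per kilobase of the longest transcript, *Notch2* came ahead of *Jag2*, and 8 of the 10 genes kept their place.

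**Figure D1:**
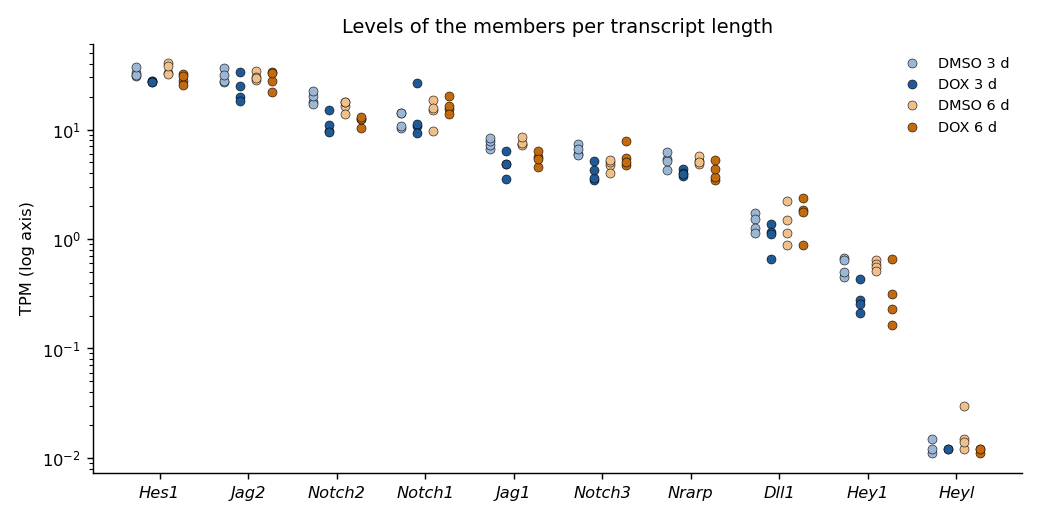
TPM (log axis) of each of the 10 members in every library, in order of the mean of the 8 DMSO libraries, coloured by group; libraries at 0 are not drawn. *Hes1* and *Jag2* lie near 30 TPM, and *Heyl* stays at or below 0.0300 TPM in every library.

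The TPM of some members is less steady than their counts. Dividing the estimated count by TPM gives the transcript length that the quantification assumed, here relative to the median gene of the same library. Over the 16 libraries that length varied by 2.17 times for *Notch1*, 1.99 times for *Dll1* and 1.44 times for *Notch3*, against 1.03 times for *Notch2* and *Nrarp*. *Notch1* has 11 annotated transcripts from 157 to 9488 bases, *Dll1* has 6 and *Notch3* has 3, against 2 for *Notch2* and 1 for *Nrarp*. *Jag2*, whose assumed length varied by 1.26 times, has 10 from 406 to 5106 bases. The part of the number of transcripts in this variation was not tested. Because the assumed length varied, counts rather than TPM were used for the main tests of treatment. TPM served in alternative fits and in the summed levels of cell type markers, which are descriptions only.

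In the comparison of DOX with DMSO at 3 d, 2 of the 9 tested members were called, which means an adjusted p under 0.05 for a change beyond 20% with edgeR's glmTreat, and both were lower. The background was 12.5% of the 13234 tested genes called, with 5.3% called higher and 7.22% called lower. At 6 d, 0 of the 9 members were called, beside a background of 21.6%, with 10.0% higher and 11.6% lower. At an unadjusted p under 0.05 there were 4 members at 3 d and 3 at 6 d, and DESeq2 called 1 and 0. The 3 d count was 3 without DOX 3 d replicate 1 and 1 without DMSO 3 d replicate 4, DOX 3 d replicate 3 or DOX 3 d replicate 4, and the 6 d count was 1 without DMSO 6 d replicate 2, DOX 6 d replicate 1 or DOX 6 d replicate 3. The call without DOX 6 d replicate 3 was that of *Hey1*, which then met the count filter through DMSO libraries alone. The members' median log2 fold change was -0.20 at 3 d and -0.25 at 6 d, beside 0.0031 and -0.00060 over all tested genes. The DOX and DMSO libraries did not overlap in CPM for 4 members at each time, beside 38.6% of all tested genes at 3 d and 43.0% at 6 d.

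Among the receptors, *Notch2* (ENSMUSG00000027878, chromosome 3 from 98013527 to 98150361, GRCm38) fell at 3 d. It had 180 (replicate 1), 156, 178 and 189 CPM in the DMSO libraries and 139, 104, 114 and 102 CPM in the DOX libraries, which do not overlap. The log2 fold change was -0.61 ± 0.0859 (SE, n = 4 and 4, adjusted p = 0.00106), or 1.53-fold lower, and it was called with any one of the 8 libraries left out. At 6 d the libraries had 139, 126, 152 and 154 CPM with DMSO and 102, 112, 111 and 112 CPM with DOX. These groups were again separate and lower with DOX, at -0.38 ± 0.0860, but the change was not called (adjusted p = 0.106), except without DMSO 6 d replicate 2 (-0.44, adjusted p = 0.0438). When the length and GC trend of each library was passed to the model as an offset, the value was -0.39 ± 0.0497 at 3 d (adjusted p = 0.0193) and -0.39 ± 0.0499 at 6 d (adjusted p = 0.0126), so both were called. The difference between the times was 0.23 ± 0.121 (adjusted p = 0.201), 0.0050 with that offset, and 0.34 without DOX 3 d replicate 1, where it passed (adjusted p = 0.0125). With the length of the median transcript in that offset, an alternative chosen after the data were seen, the 3 d value was -0.37 and not called (adjusted p = 0.0786). *Notch2* overlaps the gene models Gm42819 and Gm42820 on its own strand.

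*Notch3* (ENSMUSG00000038146, chromosome 17 from 32120820 to 32166852) had opposite signs at the 2 times. At 3 d it had 38.4, 43.0, 39.8 and 42.7 CPM with DMSO and 36.3, 26.6, 29.3 and 24.5 CPM with DOX. At 6 d it had 32.0, 28.2, 33.7 and 30.7 CPM with DMSO and 28.9, 32.9, 33.4 and 45.4 CPM with DOX. The 3 d libraries were separate and those of 6 d overlapped. Neither change was called, at -0.49 ± 0.121 (adjusted p = 0.0746) and 0.18 ± 0.121 (adjusted p = 0.921), although without DOX 3 d replicate 1 the 3 d value was -0.61 and called (adjusted p = 0.00701). The 3 d fall was also called in a fit of only the 8 libraries (adjusted p = 0.0472), with no filter (adjusted p = 0.0092) and with the median-transcript offset (-0.52, adjusted p = 0.0482). It passed with no fold limit too (adjusted p = 0.00311). RLE scaling, DESeq2, limma, the replicate block and the offset by longest transcript did not call it. The difference between the DOX effects of 6 d and 3 d, tested by glmQLFTest with no fold limit, was 0.67 ± 0.171 and passed (adjusted p = 0.0143), in a comparison where 17.0% of all tested genes passed. It passed with any one of the 16 libraries left out, and was 0.36 ± 0.103 with the length and GC offset (adjusted p = 0.0233). With a fold limit of 1.2 on the difference it did not pass (adjusted p = 0.127). The DMSO libraries share in this difference, since *Notch3* was lower at 6 d than at 3 d in DMSO with no overlap, at -0.40 ± 0.121 (adjusted p = 1.0). *Notch3* overlaps Gm17276 on the other strand, and whether reads were assigned by strand is not given in the sources used here.

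*Notch1* (ENSMUSG00000026923, chromosome 2 from 26457903 to 26516663) went the other way from *Notch2* at 6 d. Its libraries had 80.7, 72.2, 80.1 and 69.6 CPM with DMSO 6 d and 95.5, 103, 105 and 110 CPM with DOX 6 d, with no overlap. The value was 0.45 ± 0.114 (adjusted p = 0.0702), so it was not called, while with the length and GC offset it was 0.42 ± 0.0648 and called (adjusted p = 0.0158). At 3 d the DOX libraries had 118, 73.2, 90.0 and 72.3 CPM around 86.0, 83.9, 87.2 and 93.1 CPM with DMSO, and the value was 0.012 ± 0.114 (95% interval -0.21 to 0.23). Replicate 1 of DOX 3 d was the highest of all 16 libraries, and without it the 3 d value was -0.16. The difference between the times was 0.44 ± 0.160 and did not pass (adjusted p = 0.0664), except without that library (0.61, adjusted p = 0.00025). *Notch1* overlaps Mir6996 on its own strand and 0610009E02Rik and Gm13568 on the other.

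**Figure D2:**
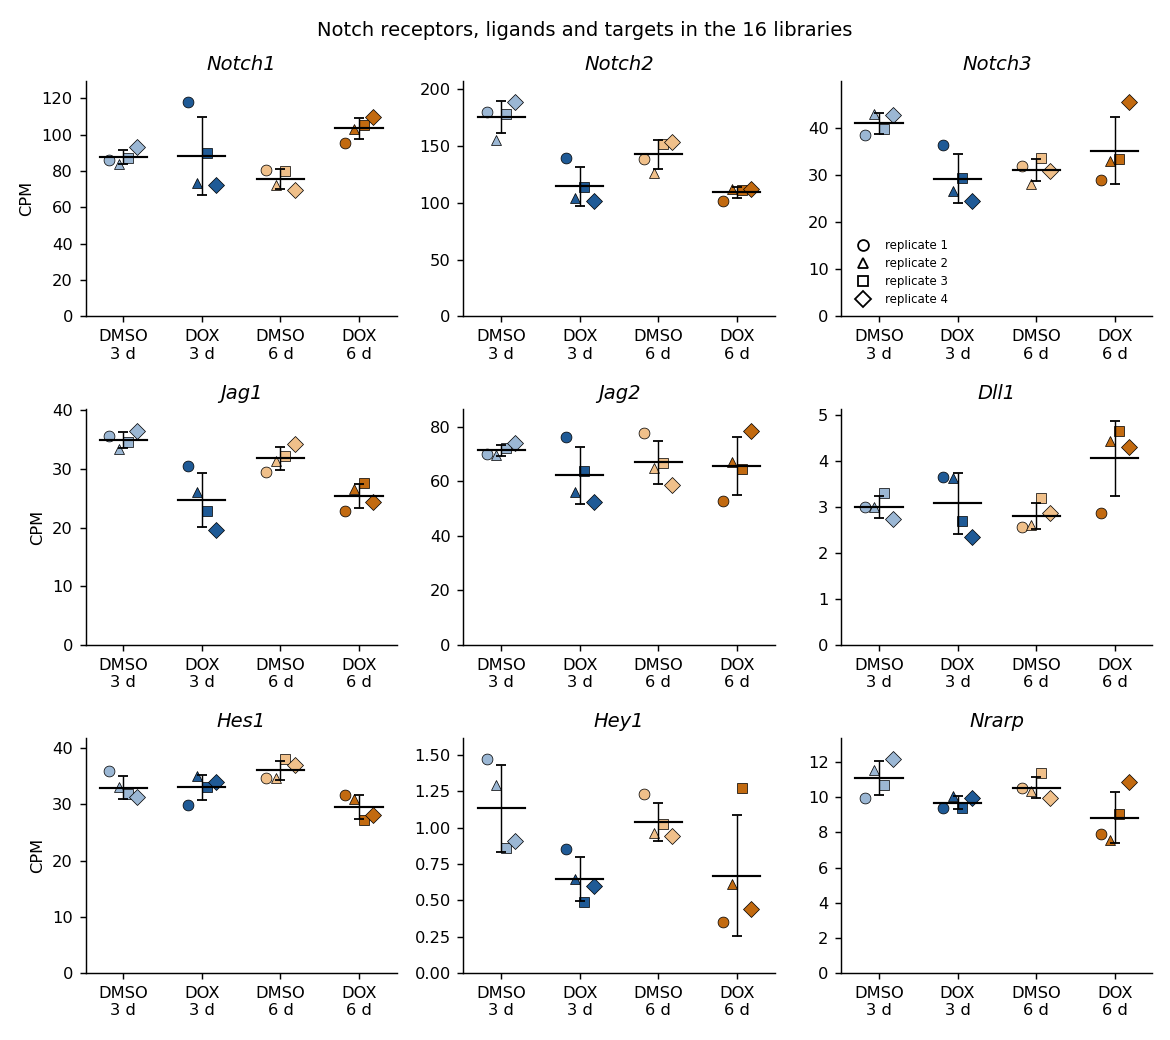
CPM of the 9 tested members in each library (marker shape gives the replicate number), with the group mean (line) and SD (bar, n = 4); every axis starts at 0. *Notch2* and *Jag1* lie lower with DOX at both times with no overlap. DOX 3 d replicate 1 (dark blue circle) is the highest of its group for *Notch1*, *Notch2*, *Notch3*, *Jag1*, *Jag2*, *Dll1* and *Hey1*, but not for *Hes1* or *Nrarp*.

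Between 6 d and 3 d in DMSO alone, 0 of the 9 members and 0 of the 13234 tested genes were called by edgeR, with 1 member and 172 genes at an unadjusted p under 0.05. *Notch1*, *Notch2* and *Notch3* were each lower at 6 d with no overlap of the CPM, at -0.21 ± 0.114, -0.30 ± 0.0854 and -0.40 ± 0.121 on the log2 scale. Of all tested genes, 12.2% had DMSO libraries that did not overlap between the 2 times. With the length and GC offset the 3 values were -0.046, -0.14 and -0.25.

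Among the ligands, *Jag1* (ENSMUSG00000027276, chromosome 2 from 137081456 to 137116644) fell at 3 d. It had 35.6, 33.3, 34.6 and 36.5 CPM with DMSO and 30.4, 26.1, 22.9 and 19.7 CPM with DOX, without overlap. The log2 fold change was -0.50 ± 0.0947 (adjusted p = 0.0254), or 1.41-fold lower. The call was lost without DMSO 3 d replicate 4 (-0.47, adjusted p = 0.0623), DOX 3 d replicate 3 (-0.46, adjusted p = 0.0796) or DOX 3 d replicate 4 (-0.40, adjusted p = 0.126), with the length and GC offset (-0.39 ± 0.0752, adjusted p = 0.0985), with DESeq2 (-0.49, adjusted p = 0.229) and in a fit of only the 8 libraries (-0.49, adjusted p = 0.0513). At 6 d *Jag1* had 29.5, 31.3, 32.3 and 34.2 CPM with DMSO and 22.9, 26.5, 27.6 and 24.4 CPM with DOX, again without overlap, at -0.33 ± 0.0945 (adjusted p = 0.301). The values at the 2 times differed by 0.17 ± 0.134 (95% interval -0.094 to 0.43, adjusted p = 0.412). No annotated gene overlaps *Jag1*.

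*Jag2*, the most abundant ligand, had 69.6 to 73.9 CPM in DMSO 3 d, 52.5 to 76.2 in DOX 3 d, 58.7 to 77.5 in DMSO 6 d and 52.6 to 78.4 in DOX 6 d. The groups overlapped at both times, at -0.20 ± 0.115 (95% interval -0.43 to 0.026) and -0.026 ± 0.115 (95% interval -0.25 to 0.20). *Dll1*, a Delta-like ligand, was far scarcer, with 43 to 108 counts in each library. Its 6 d libraries had 2.57, 2.62, 3.19 and 2.88 CPM with DMSO and 2.86, 4.43, 4.66 and 4.31 CPM with DOX, so 3 of the 4 DOX libraries lay above every DMSO library. The value was 0.53 ± 0.169 (adjusted p = 0.0833) and was called without DOX 6 d replicate 1 (0.67, adjusted p = 0.0151). At 3 d it was 0.042 ± 0.173 (95% interval -0.30 to 0.38). The difference between the times was 0.49 ± 0.242 (adjusted p = 0.166), and 0.62 without DOX 6 d replicate 1 (adjusted p = 0.0473). *Jag2* overlaps Mir6941, and *Dll1* overlaps A930024N18Rik on the other strand.

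Among the targets, *Hes1* (ENSMUSG00000022528, chromosome 16 from 30064384 to 30067796), a repressor that is read as a gauge of Notch activity in many tissues, had a mean of 33.0 CPM in both groups at 3 d. The libraries had 35.8, 33.0, 31.8 and 31.2 CPM with DMSO and 29.9, 35.0, 33.0 and 34.0 CPM with DOX, at 0.0030 ± 0.0675 (95% interval -0.13 to 0.14). At 6 d it had 34.6, 34.6, 38.0 and 36.9 CPM with DMSO and 31.6, 30.9, 27.3 and 28.1 CPM with DOX, which do not overlap. That value was -0.29 ± 0.0673 and did not pass the 20% limit (adjusted p = 0.417), but passed with no fold limit (adjusted p = 0.00121), as did 6 of the 9 members and 50.6% of all tested genes. The difference between the times was -0.29 ± 0.0953 (adjusted p = 0.0396). That call was lost without 11 of the 16 libraries taken one at a time, at values from -0.34 to -0.26 over all 16, and with the length and GC offset it was -0.12 ± 0.0800 (adjusted p = 0.378).

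*Hes1* also differed between scales at 3 d. In TPM it had 30.7, 32.6, 31.2 and 37.0 with DMSO and 27.9, 27.8, 27.3 and 27.2 with DOX, which do not overlap. With limma on log2(TPM + 1) its difference was -0.24, while the median of all tested genes was -0.15 on that scale, and -0.055 at 6 d. On that scale 85 genes were called higher and 616 lower at 3 d, against 702 and 956 on counts, and 376 and 931 at 6 d, against 1326 and 1530.

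*Hey1*, another repressor of the same family, had only 7 to 31 counts in each library. It had 1.47, 1.29, 0.857 and 0.910 CPM with DMSO 3 d and 0.850, 0.646, 0.487 and 0.60 CPM with DOX 3 d, which come close but do not overlap. The values were -0.79 ± 0.320 at 3 d (adjusted p = 0.179) and -0.62 ± 0.317 at 6 d (adjusted p = 0.284), with the DOX 6 d libraries at 0.351, 0.615, 1.27 and 0.441 CPM. Without DOX 6 d replicate 3, the highest of them, the 6 d value was -1.12 and called (adjusted p = 0.0154). That was the only DOX library to reach 1 CPM. Without it *Hey1* met the count filter through DMSO libraries alone, so this call is not independent of that filter. With 1 CPM asked in all 16 libraries *Hey1* was not tested. The 95% interval at 3 d ran from -1.42 to -0.17, a range that also holds the values of *Notch2* and *Jag1*.

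*Nrarp*, whose product helps to limit Notch signalling, had 9.96 to 12.1 CPM in DMSO 3 d, 9.36 to 10.1 in DOX 3 d, 9.93 to 11.4 in DMSO 6 d and 7.58 to 10.8 in DOX 6 d. The groups overlapped at both times, at -0.20 ± 0.10 (adjusted p = 0.942) and -0.25 ± 0.101 (adjusted p = 0.634). *Nrarp* overlaps Gm38287 on the other strand. *Heyl* had at most 2 counts in any library, which is under the floor in all 16. The exact two-sided permutation test over 70 arrangements gave p = 0.8286 at 3 d and 0.0857 at 6 d (0.8286 and 0.171 adjusted over the 2), and no fold is given.

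**Figure D3:**
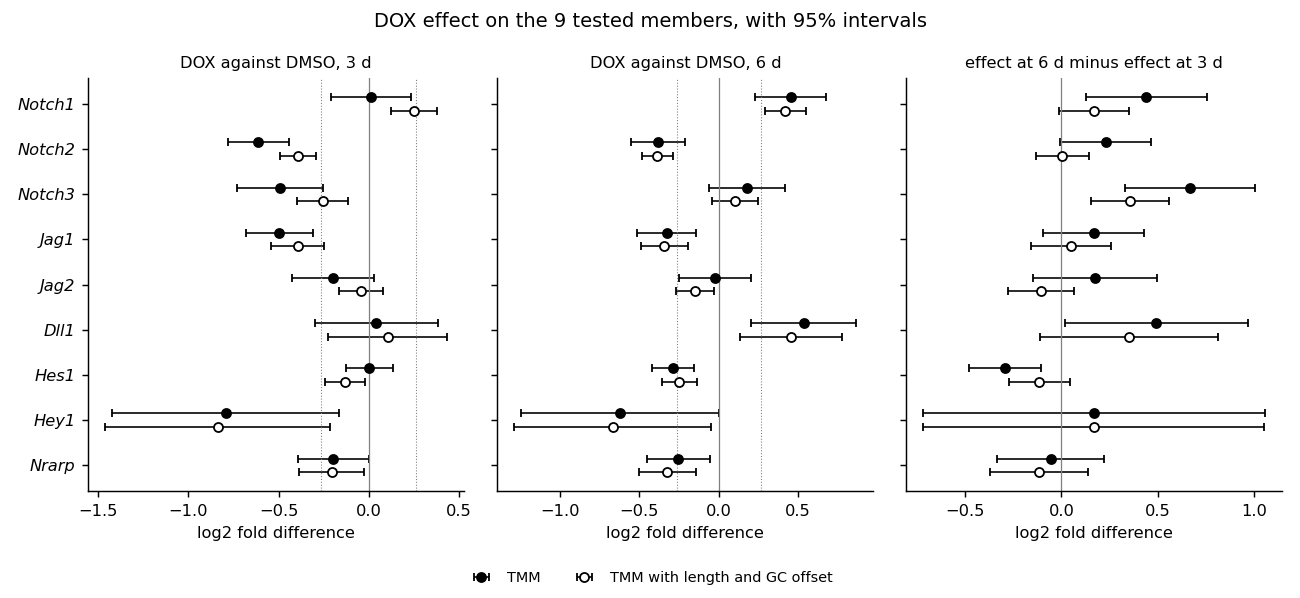
Log2 fold difference with its 95% interval for the 9 tested members at 3 d, at 6 d and for the difference between the times, from the TMM-scaled fit (filled) and with a length and GC offset (open); dotted lines mark the fold limit of 1.2. With the offset, *Notch2* is at -0.39 at both times and *Hes1* moves toward 0 in the difference between the times.

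The length trend was visible in all genes. At 3 d the median log2 fold change was 0.17 over the 3096 tested genes whose longest transcript is under 2000 bases, 0.0080 over the 7306 genes from 2000 bases to under 5000, and -0.16 over the 2832 genes of 5000 bases or more. The longest class holds 5 members, namely the 3 receptors, *Jag1* and *Jag2*, and 11.8% of it was called lower, against 3.88% of the shortest class. At 6 d the 3 medians were -0.031, 0.025 and -0.038. *Notch2* (-0.61) and *Jag1* (-0.50) lay below the median of their class at 3 d, as did *Notch3* and *Jag2*, and *Notch1* (0.012) lay above it. Without DOX 3 d replicate 1 the *Notch2* value at 3 d was -0.72 and that of *Jag1* -0.61. The part of the length trend in these changes beyond the offset given was not tested.

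**Figure D4:**
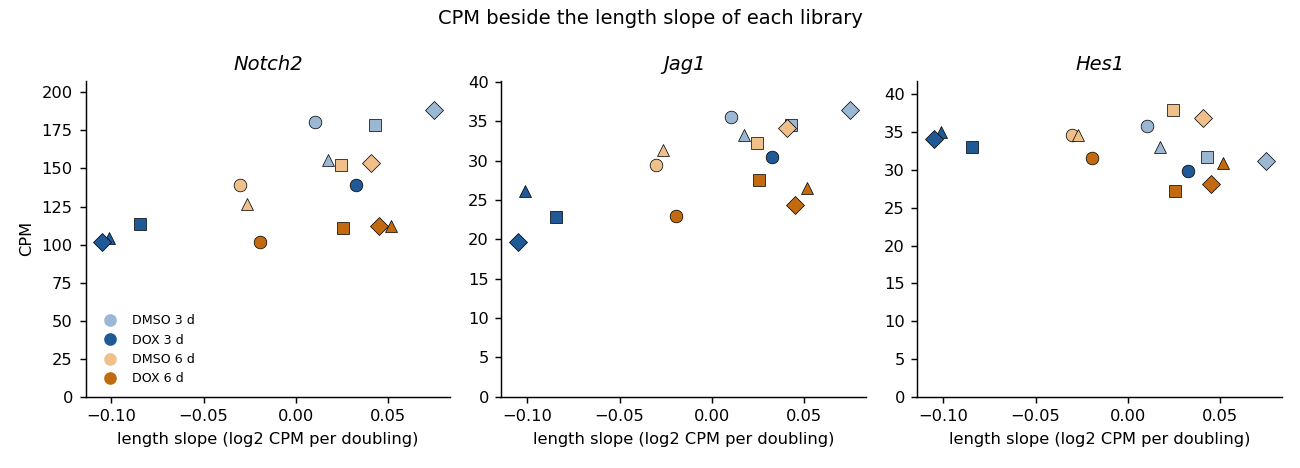
CPM of *Notch2*, *Jag1* and *Hes1* in each library against that library's length slope (change of log2 CPM per doubling of the longest transcript), coloured by group, with marker shapes for replicates 1 to 4 as circle, triangle, square and diamond. DOX 3 d replicates 2 to 4 lie at slopes between -0.105 and -0.0845, apart from the other 13 libraries; at 6 d the DOX libraries of *Notch2* lie below the DMSO libraries at similar slopes.

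The genes whose log2 CPM followed *Notch2* most closely over the 16 libraries were *Baz1b*, *Bicc1* and *Casz1*, with Pearson's r of 0.985, 0.974 and 0.971. For *Jag1* they were *Dock1*, *Wdr47* and *Tcf20*, with r of 0.959, 0.945 and 0.944. These r describe libraries that share treatment, time and length slope, and the 6 genes have longest transcripts from 4222 to 7926 bases, with 3 d values between -0.79 and -0.29 on the log2 scale.

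The rest of the pathway was read from a list of 55 genes that includes the members, of which 49 were tested. At 3 d 9 were called, 2 higher and 7 lower, which is 18.4% beside 12.5% of all tested genes. That share was not above the background in every fit, being 10.2% of the list beside 11.3% of all tested genes with the length and GC offset and 6.12% beside 7.7% with DESeq2. The calls that ended with the offset were those of *Jag1*, *Notch4*, *Neurl1b* and *Itch*, and DESeq2 called *Notch2*, *Dll4* and *Neurl1b* alone. At 6 d 10 were called, 6 higher and 4 lower, which is 20.4% beside 21.6%, so the share at 6 d was near the background. DESeq2 called 7 of the list at 6 d, without *Aph1c*, *Dtx3* and *Dtx3l* (adjusted p = 0.117, 0.204 and 0.0518). Among the 40 tested genes that are not members, 7 were called at 3 d and 10 at 6 d, and their median log2 fold change was -0.12 and 0.0050. With any one of the 8 libraries left out, the count over the 49 ranged from 5 to 9 at 3 d, and it was 5 without DMSO 3 d replicate 2, DMSO 3 d replicate 4, DOX 3 d replicate 2 or DOX 3 d replicate 3.

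*Notch4* and *Dll4*, a receptor and a ligand best known from blood vessels, were scarce and lower with DOX. No DOX library reached 1 CPM, at most 0.981 for *Notch4* and 0.861 for *Dll4*, so both met the count filter through DMSO libraries alone. Their calls are therefore not independent of that filter, and both are among the 7 lower at 3 d. With 1 CPM asked in all 16 libraries neither was tested. In that fit 7 of the 45 list genes tested were called at 3 d, 15.6% beside 12.6% of all tested genes. *Notch4* had 17, 51, 20 and 35 counts in DMSO 3 d, 15, 9, 16 and 18 in DOX 3 d, 30.0, 21, 29 and 26 in DMSO 6 d and 8, 10, 8 and 13 in DOX 6 d. Its value was -0.96 ± 0.281 at 3 d (adjusted p = 0.0434), a call lost with the offset (-0.75, adjusted p = 0.143) and without DMSO 3 d replicate 2 (-0.72), DMSO 3 d replicate 4 (-0.95) or DOX 3 d replicate 1 (-0.96), 2 (-0.77) or 3 (-1.03), and -1.59 ± 0.301 at 6 d (adjusted p = 0.000639), a call kept with any one library left out. *Dll4* had 31, 32, 19 and 37 counts in DMSO 3 d and 13, 6, 15 and 9 in DOX 3 d, at -1.39 ± 0.310 (adjusted p = 0.00579), and was at -0.83 ± 0.306 at 6 d (adjusted p = 0.0934), which was called without DMSO 6 d replicate 3 (-0.98, adjusted p = 0.0484). In TPM the groups of both genes overlapped at both times, and both overlap a gene on the other strand, Gm20462 and Gm14207. Of the 6 endothelial markers, 3 were tested and 0 called at either time, *Cdh5*, *Tek* and *Emcn* had at most 0.102, 0.135 and 0.441 TPM in any library, and the summed TPM of the 6 was 4.52 to 5.73 in DMSO 3 d, 2.98 to 4.64 in DOX 3 d, 4.29 to 5.08 in DMSO 6 d and 2.82 to 3.56 in DOX 6 d, most of it from *Flt1*. The part of such cells in these values was not tested.

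Among the 10 proteases that cut the receptor, the sheddase *Adam17* fell at 6 d by 0.55 on the log2 scale (SE 0.0646, adjusted p = 0.000247), and 2 gamma-secretase genes rose at 6 d, the catalytic subunit *Psen2* by 0.77 ± 0.118 (adjusted p = 0.00036) and *Aph1c* by 0.73 ± 0.174 (adjusted p = 0.0122). *Aph1c* also rose at 3 d (0.67 ± 0.178, adjusted p = 0.0379), a call lost without DMSO 3 d replicate 2 (0.57) or 3 (0.65) or DOX 3 d replicate 1 (0.64) or 2 (0.62). *Adam17* was called at 3 d only without DOX 3 d replicate 1 (-0.41, adjusted p = 0.0335). Of the enzymes that put sugars on the receptor, *Pofut1* rose at 6 d (0.54 ± 0.0782, adjusted p = 0.00151). With limma on log2(TPM + 1) the 6 d calls of *Adam17* (-0.54, adjusted p = 0.077), *Psen2* (0.55, adjusted p = 0.102), *Aph1c* (0.34) and *Pofut1* (0.34, adjusted p = 0.89) were lost. *Lfng*, a Fringe enzyme that changes which ligands a receptor answers to, fell at both times, by 0.44 at 3 d (adjusted p = 0.0459) and 0.72 at 6 d (adjusted p = 2.01e-05). The 3 d call of *Lfng* was lost without 6 of the 8 libraries taken one at a time, with RLE scaling (-0.43, adjusted p = 0.0508) and with DESeq2 (adjusted p = 0.467), and remained in edgeR without DMSO 3 d replicate 1 or DOX 3 d replicate 4.

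The ubiquitin ligases that act on ligands split. *Mib2* rose by 0.52 ± 0.0936 at 3 d (adjusted p = 0.0134) and 0.99 ± 0.0919 at 6 d (adjusted p = 3.64e-07), and *Neurl1b* fell by 0.61 at 3 d (adjusted p = 0.00767) and 0.78 at 6 d (adjusted p = 0.000203), while *Mib1* and *Neurl1a* were called at neither time. Of the 9 tested genes of receptor turnover, the ligase *Itch* fell at 3 d (-0.39 ± 0.0608, adjusted p = 0.0445), and the Deltex genes *Dtx3* (0.44 ± 0.0803, adjusted p = 0.0231) and *Dtx3l* (0.50 ± 0.0828, adjusted p = 0.00663) rose at 6 d. The 3 d call of *Mib2* was lost with DESeq2 (0.53, adjusted p = 0.0909) and with limma on log2(TPM + 1) (0.26). The 3 d call of *Neurl1b* was lost with the offset (-0.43, adjusted p = 0.0889) and with limma on log2(TPM + 1) (-0.66, adjusted p = 0.0858). The *Itch* call was lost with the offset (-0.33, adjusted p = 0.132), with RLE scaling (-0.39, adjusted p = 0.0511) and with any library left out except DOX 3 d replicate 1, with adjusted p up to 0.177, and at 6 d, at -0.37, *Itch* was called without DMSO 6 d replicate 1 or 2 (adjusted p = 0.0287 and 0.0439). The *Dtx3* call was lost without DMSO 6 d replicate 2, 3 or 4 or DOX 6 d replicate 4 (0.40 to 0.42, adjusted p up to 0.0771). None of the 9 genes of the nuclear complex was called by edgeR at either time, and DESeq2 and limma called none either. None had an unadjusted p under 0.05 in glmTreat, which tests for a change beyond 20%. With no fold limit (glmQLFTest), *Kat2b* (-0.25, adjusted p = 0.00126), *Ep300* (-0.30, 0.00411), *Spen* (-0.33, 0.00425) and *Snw1* (0.16, 0.0195) passed at 3 d, beside 45.2% of all tested genes. At 6 d *Spen* (-0.25, adjusted p = 0.0236) and *Maml1* (0.23, 0.0284) passed, beside 50.6%. Leaving out DOX 3 d replicate 1 gave a call at 3 d for the corepressor *Spen* (-0.44, adjusted p = 0.0229), against -0.33 with all libraries (adjusted p = 0.332), and it was named after its values were seen. *Rbpj*, the DNA-binding part of the complex, was at -0.033 ± 0.0658 at 3 d and 0.014 ± 0.0657 at 6 d (95% interval -0.12 to 0.14). The target gene *Hey2* was below the count limit and was not tested.

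**Figure D5:**
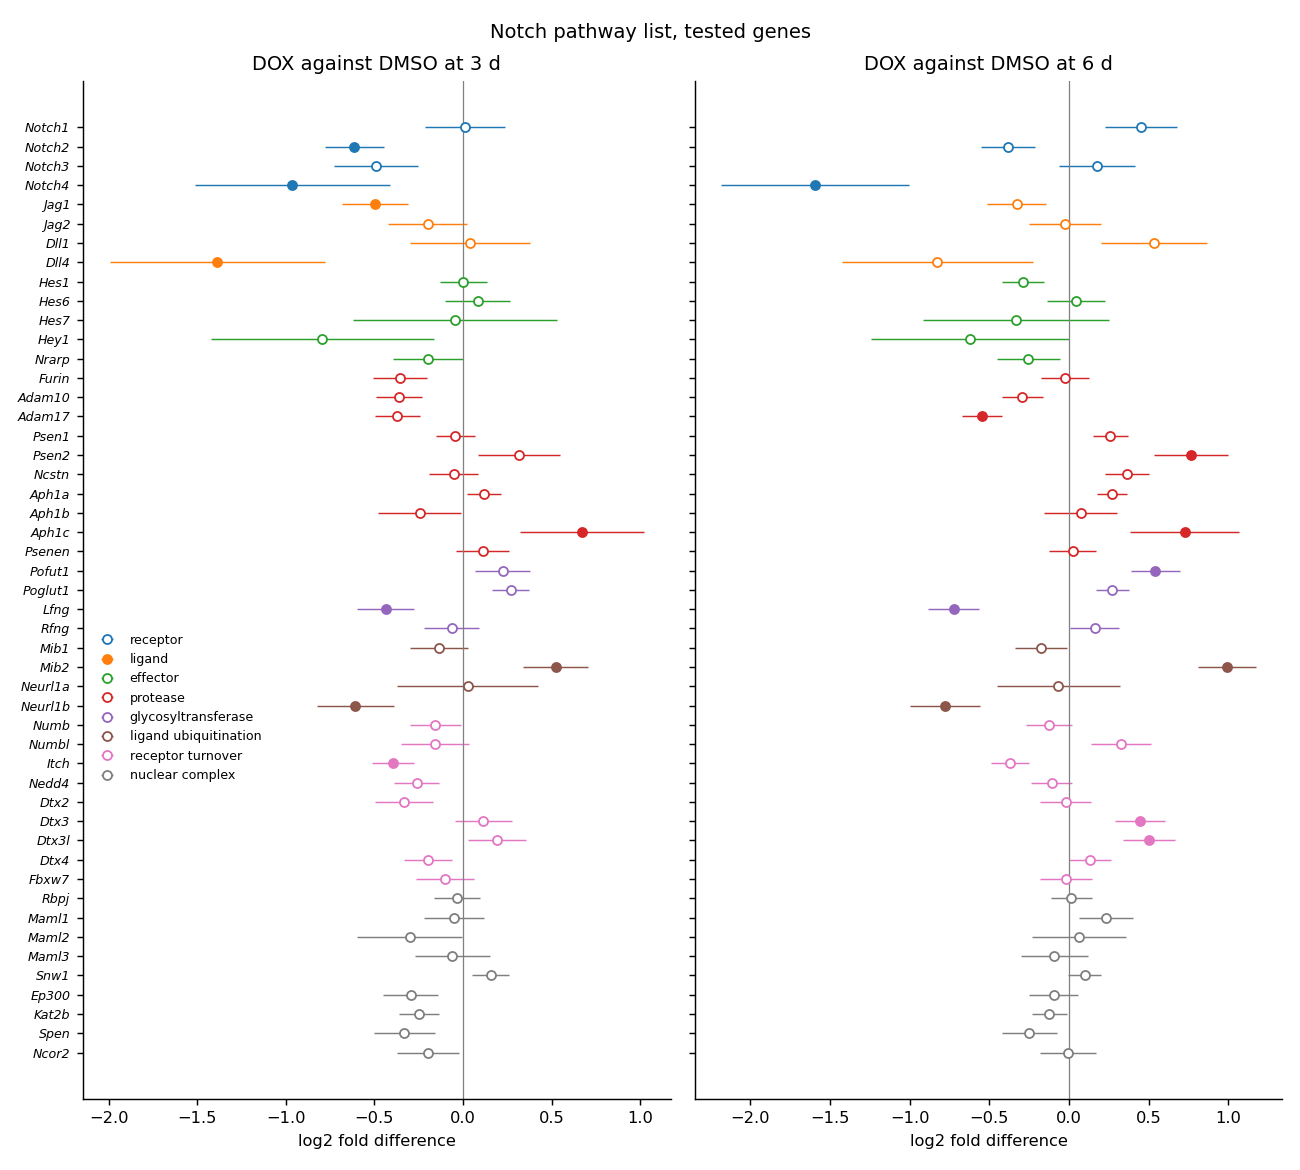
Log2 fold difference with 95% interval for the 49 tested genes of the Notch pathway list at 3 d (left) and 6 d (right), coloured by role; filled points are called and open points are not. The called genes are 2 higher and 7 lower at 3 d and 6 higher and 4 lower at 6 d.

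Some markers of cell types were called with DOX too, beside 12.5% of all tested genes called at 3 d and 21.6% at 6 d. Of the 11 principal cell markers 3 were tested, and 2 fell at both times, the sodium channel subunit *Scnn1a* (-1.05 and -1.48) and the transcription factor *Gata3* (-0.74 and -0.97). *Tfcp2l1* was tested and called at neither time. Its mean CPM was 39.5 in DMSO 3 d, 27.3 in DOX 3 d, 35.2 in DMSO 6 d and 26.3 in DOX 6 d. The summed TPM of the 11 was 11.4 to 13.3 in DMSO 3 d, 6.02 to 7.88 in DOX 3 d, 10.4 to 15.5 in DMSO 6 d and 6.68 to 8.26 in DOX 6 d. Of the 8 intercalated cell markers 1 was tested, *Slc26a4*, which fell at 3 d (-1.01), and the sum of the 8 stayed at or below 2.54 TPM. Of the 6 epithelial markers 2 fell at 3 d and 3 at 6 d, with summed TPM of 2120 to 2360 in DMSO 3 d, 1570 to 1820 in DOX 3 d, 2330 to 2590 in DMSO 6 d and 1590 to 1800 in DOX 6 d. *Cd68* and *Csf1r* were the 2 tested of 6 leukocyte markers and fell at both times, with the sum of the 6 at 24.9 to 32.6, 10.8 to 16.6, 28.4 to 31.6 and 15.3 to 16.7 TPM in the 4 groups in the same order, while the pan-leukocyte marker *Ptprc* had at most 0.381 TPM in any library. Of the 7 mesenchymal markers 1 was tested and not called, with sums at or below 3.41 TPM. These sums, and those of the endothelial markers, are in TPM. With limma on log2(TPM + 1) the median of all tested genes was itself -0.15 at 3 d and -0.055 at 6 d. How much of each fall in a sum goes with that general shift was not tested. The part of the marker shifts in the members' values was not tested.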

How the data were processed

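Poly(A) RNA of 16 mIMCD3 libraries in 4 groups of 4 was sequenced from a directional kit. The authors aligned reads with STAR to GRCm38.p6 and quantified transcripts with salmon, and the deposited gene tables hold estimated counts, not normalized, and TPM, which the authors divided by transcript length. Groups come from the sample titles. Whether salmon used strand is not given in the sources used here.

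Estimated counts were rounded. The 13234 genes that reached 1 CPM in 4 or more libraries were scaled by TMM and fitted with edgeR 4.0.16 (R 4.3.3), robust quasi-likelihood, 1 mean per group over 16 libraries. DOX and DMSO, and DMSO at the 2 times, were compared by glmTreat at fold 1.2, and the difference of effects by glmQLFTest without a fold limit. Tests were two-sided, with Benjamini-Hochberg adjustment over all tested genes and 0.05 as the limit. SE is the log2 fold change divided by the square root of F, and intervals are 1.96 SE. Alternatives were RLE, DESeq2 1.42.0, limma 3.58.1 on log2(TPM + 1) and log2(TPM + 0.1), other filters, no fold limit, a replicate block, only 8 libraries, leaving out each library, and an offset of splines (5 degrees of freedom each) in length and GC content of the longest GENCODE M21 transcript; the median-transcript version was added after seeing the data. The code was tested on simulated counts.

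The members and gene lists were chosen with earlier results of these data known. Genes named are the members, other list genes called at 3 or 6 days, *Notch4*, *Dll4*, *Hey2* and *Rbpj*, the 3 genes most alike in log2 CPM to each called member, and label checks. Further cell type markers and genes of the nuclear complex were named after their values were seen, as were *Hes5*, *Hes6* and *Hes7* for their promoter windows. Replicate numbers did not pair libraries.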

Additional observations from a re-analysis of the deposited data

Results flagged for a closer look

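In DOX 3 d replicate 1, *Notch1* had 26.5 TPM (26.45 before rounding), while the other libraries of its group had 9.21 to 11.2 TPM; its gap was 0.885 of the group's range. In CPM the same library was also highest, at 118, but the gap was not as large a share of the range. In DOX 6 d replicate 1, *Notch2* had 102 CPM (101.6), below 111 to 112 CPM in the other libraries of that group, a gap of 0.889 of the range. These were 2 of 72 sets of 4 libraries looked at over 9 members, 4 groups and both scales, and chance alone marks about 1 in 20.

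The DOX effects of 6 d and 3 d differed by a test of the difference for *Notch3* (0.67 on the log2 scale, 0.666 before rounding, adjusted p = 0.0143) and *Hes1* (-0.29, adjusted p = 0.0396). The *Notch3* difference passed with any one library left out but not with a fold limit of 1.2 (adjusted p = 0.127). The *Hes1* call was lost without 11 of the 16 libraries taken one at a time, and it was -0.12 with the length and GC offset (adjusted p = 0.378).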

How the results depend on the processing

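RLE scaling and a limit of 1 CPM in all 16 libraries moved no count of called genes by over 1.5 times. At 3 d, 1658 genes, 2 members and 9 pathway genes were called. DESeq2 gave 1019, 1 and 3, limma on log2(TPM + 1) gave 701, 1 and 2, limma on log2(TPM + 0.1) gave 909, 1 and 3, and no fold limit gave 5982, 4 and 24. The length and GC offset gave 1 member and 5 pathway genes, with the replicate block 1 member, and by median transcript 1 member. That member was *Notch2* with the first 2 offsets and *Notch3* by median transcript, where *Notch2* and *Jag1* were not called. At 6 d, 2856 genes, 0 members and 10 pathway genes were called. limma gave 1307 genes and 3 pathway genes on log2(TPM + 1) and 1527 and 4 on log2(TPM + 0.1), and no fold limit gave 6702, 6 and 26. The pathway genes that limma called at 6 d were *Lfng*, *Mib2* and *Neurl1b* on both scales, and *Adam17* on log2(TPM + 0.1). The 6 d count of members was 1 with no filter, 1 in a fit of only the 8 libraries, 2 with the length and GC offset, 2 with that offset and the block, and 1 by median transcript. Between DMSO groups, no fold limit gave 62 genes. For the difference between times, 2252 genes and 2 members passed, against 183 and 0 with a fold limit of 1.2, and 1 member with each of the offsets.

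Libraries with the same number did not deviate together from their group means, with correlations of -0.175 to -0.0245 at 3 d and -0.288 to 0.178 at 6 d. A replicate block gave 1570 called genes at 3 d, 2767 at 6 d and 1768 for the difference, with 5 pathway genes at 3 d (10.2% beside 11.9% of all genes) and 1 member for the difference. The calls it ended were those of *Aph1c*, *Itch*, *Lfng* and *Notch4* at 3 d (adjusted p from 0.054 to 0.0674) and of *Hes1* for the difference (0.0656).

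With single libraries left out, counts ran from 1366 to 2295 genes, 1 to 3 members and 5 to 9 pathway genes at 3 d, from 2545 to 3064, 0 to 1 and 9 to 11 at 6 d, and from 1369 (without DMSO 3 d replicate 4) to 3787 (without DOX 3 d replicate 1) genes and 1 to 4 members for the difference, which was also 1480 without DOX 3 d replicate 2 and 1467 without DMSO 6 d replicate 2. *Heyl* differed by -0.0202 to 0.00068 CPM at 3 d and by -0.0375 to -0.0168 at 6 d, with an exact permutation p of 0.0286 at 6 d without DMSO 6 d replicate 2, in values under the floor.

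Signs turned for values that were not called. At 3 d *Notch1* (0.012) was -0.0030 with the block and -0.031 by median transcript, *Dll1* was -0.22 and -0.39 in limma, *Hes1* was -0.24 and -0.25 in limma, -0.0090 with 1 CPM in all libraries, -0.13 with the offset, -0.13 with offset and block and -0.034 by median transcript, *Dtx3* was -0.055 and -0.056 in limma, and *Rbpj* was 0.040, 0.041 and 0.0060 with the 3 offsets. At 6 d *Jag2* was 0.011 with no filter, and *Rbpj* -0.058 and -0.060 in limma. For the difference, *Notch2* (0.23) was -0.015 by median transcript and *Jag2* (0.17) -0.11 with the offset and -0.10 with the block added. With single libraries left out, ranges that cross 0 were -0.16 to 0.096 for *Notch1*, -0.049 to 0.15 for *Dll1* and -0.028 to 0.048 for *Hes1* at 3 d, -0.12 to 0.065 for *Jag2* and -0.062 to 0.061 for *Rbpj* at 6 d, and -0.32 to 0.37 for *Hey1* and -0.17 to 0.014 for *Nrarp* in the difference. The cause was not tested. Depth limits *Hey1*, *Dll1*, *Notch4* and *Dll4*, and no fold can be given for *Heyl*.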
